A study of Bos taurus with 9 samples.

Results

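The mitochondrial ribosomal protein genes are the nuclear genes for the proteins of the mitoribosome. They were taken as every row whose symbol in any of the files is MRPL or MRPS followed by a number, with the files joined by gene identifier. This gave 77 genes of the 17258 annotated genes in any file, and all 77 are in each of the 9 libraries. By the usual assignment of their proteins, 50 belong to the large subunit and 26 to the small one. Among the 50 are MRPS30 and MRPS18A, whose proteins sit in the large subunit despite their symbols. MRPS36, now known as a subunit of the 2-oxoglutarate dehydrogenase complex, was assigned to neither.

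The mitoribosome is the ribosome inside mitochondria, and it translates the few messenger RNAs of the mitochondrial genome, all of which code for subunits of the respiratory chain and ATP synthase. Its RNAs come from mitochondrial DNA, whereas every protein is made in the cytosol from nuclear genes and imported. Many of the proteins descend from bacterial ribosomal proteins and the others are specific to mitochondria. The early cleavage embryo lives largely on mitochondria and RNA from the egg until its own genome is activated.

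The embryos were bovine and clones from somatic cell nuclear transfer (SCNT), where a body cell's nucleus replaces that of the egg. RNA was sequenced from 9 libraries in 3 groups of 3. All share abattoir oocytes matured in vitro and donor fibroblasts of a female Holstein fetus. Control morulae developed without any injection, and no mock injection is stated for them. KDM6A morulae came from embryos given mRNA for wild-type bovine KDM6A, a histone H3 lysine 27 demethylase, 1 h after activation. Both kinds of morula were taken at day 5 in pools of 5. The 8-cell SCNT libraries, not injected, come from an earlier series per the study's design text, so in every comparison with them the stage and the series of origin cannot be told apart. The labels do not tie the pools to separate days or oocyte batches, so the p-values reflect only how far these libraries vary, and that variation may be technical.

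KDM6A itself stood at 8.76 ± 2.37 FPKM in the 8-cell libraries, 11.8 ± 1.81 in control morulae and 67.6 ± 27.9 in KDM6A morulae (SD, n = 3 each). FPKM is fragments scaled to transcript length and to the library, so levels may be compared between genes. Reads of the injected mRNA and of the embryo's own gene cannot be told apart. Morula libraries carried all 6 embryo markers at 1 FPKM or more (summed 212 to 391 FPKM), against 4 of 6 in the 8-cell libraries (summed 81.8 to 140.3). NANOG went the other way, at 107, 59.0 and 94.1 FPKM in 8-cell libraries and 32.3 to 67.9 in morulae. It made up most of the 8-cell sums, while the other embryo markers were higher in every morula library. Oocyte and maternal markers summed to 3732 to 9042 FPKM at the 8-cell stage and 20.6 to 458 in morulae. Most of the 8-cell sums was BTG4, at 3360, 8658 and 5716 FPKM. Cumulus and granulosa markers summed to 15.2 to 26.01 FPKM at the 8-cell stage and 2.67 to 5.96 in morulae. Only HAS2 and TNFAIP6 of them reached 1 FPKM in any library. Donor fibroblast markers summed to 25.6 to 69.6 FPKM over all 9. The highest sum was that of 8-cell replicate 2, where LUM stood at 29.1 FPKM. There 6 of the 8 markers reached 1 FPKM, against 3 to 5 in the other libraries. That library was also the lowest of its group in 46 of the 77 mitoribosomal genes. Blood markers summed to 66.0 to 108.5 FPKM at the 8-cell stage and 105.4 to 223 in morulae, nearly all of it HBA, an alpha globin, with HBB below 1 FPKM in every library. The part of these other RNAs in the stage differences below was not tested. In bulk libraries, fewer cells of a type and less RNA per cell cannot be told apart.

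Mitoribosomal mRNA was abundant in every library. In 76 of the 77 genes all 9 libraries reached 1 FPKM, the exception being MRPL54 at 0.99 in 8-cell replicate 2. The median gene mean was 87.0 FPKM in 8-cell embryos, 152 in control morulae and 142 in KDM6A morulae. The 77 genes together summed to 11040 to 12185 FPKM per 8-cell library, or 1.28% to 1.47% of all FPKM. In the 6 morula libraries they summed to 13009 to 15869 FPKM, or 1.42% to 1.62%. MRPS18C, the most abundant of them at the 8-cell stage, was lower in morulae.

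**Figure D1:**
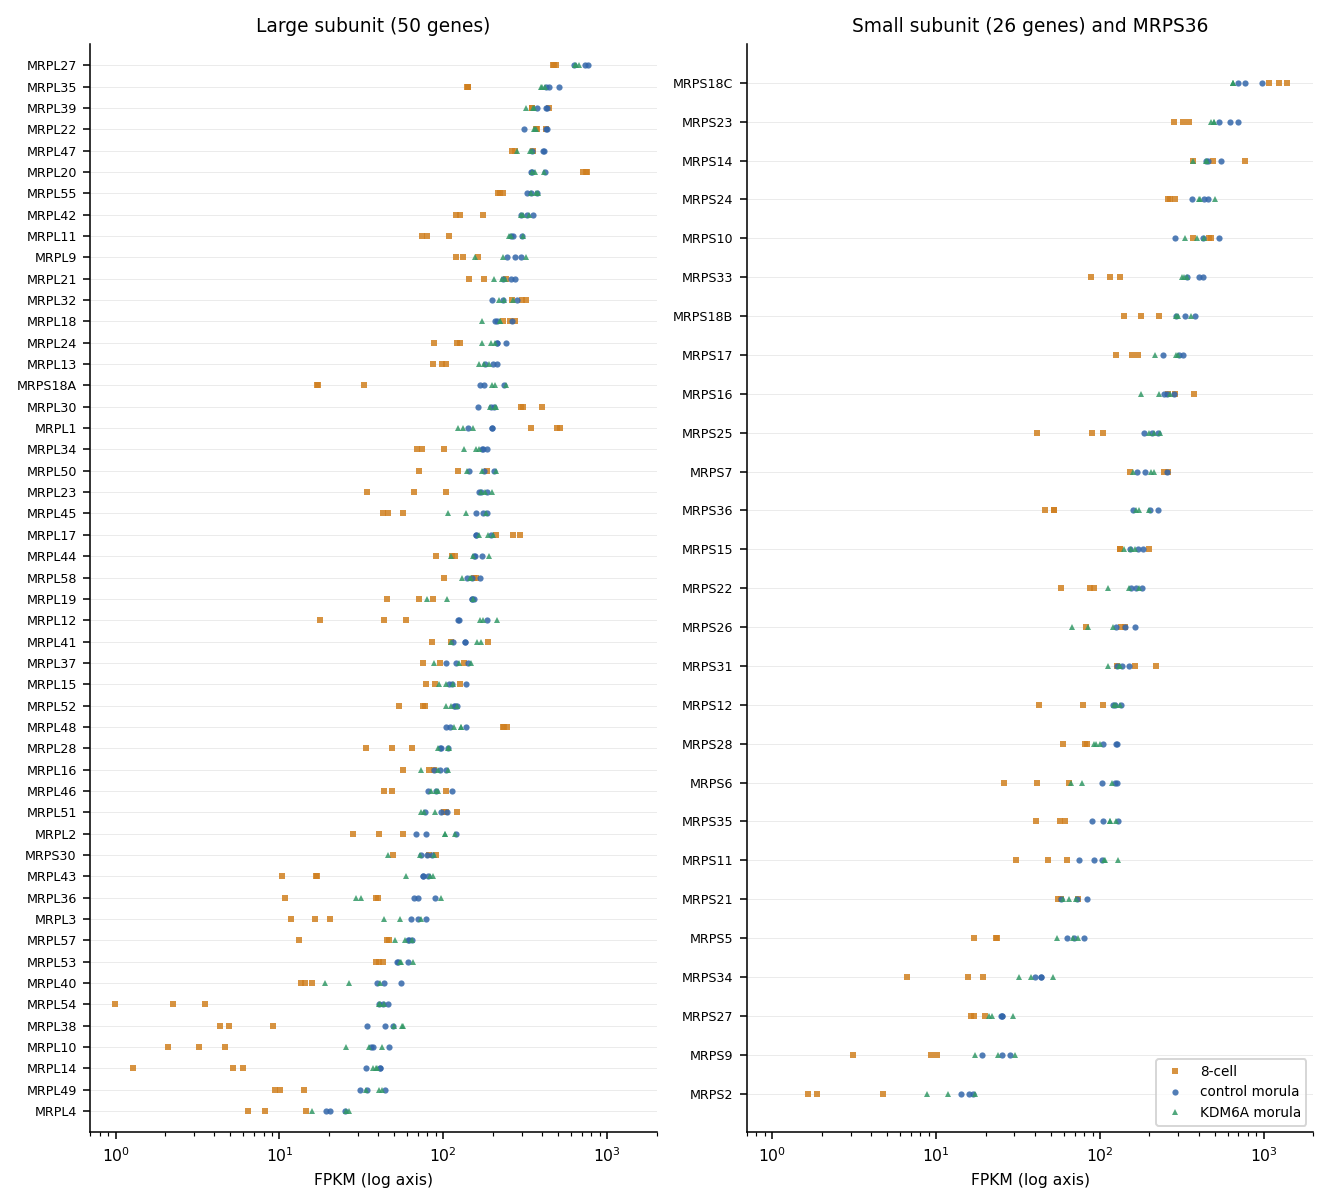
FPKM on a log axis for each of the 77 genes, ordered by their mean in control morulae, with the large subunit at left and the small subunit with MRPS36 at right. Each symbol is 1 library (squares 8-cell, circles control morula, triangles KDM6A morula), and most squares lie to the left of the other symbols, with MRPS18C, MRPL20, MRPL1, MRPL48 and MRPL30 among those to the right.

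MRPS18C, the small-subunit protein that corresponds to bacterial S18, was the highest of the 77 by its mean over the 9 libraries. It stood at 1075, 1382 and 1245 FPKM in the 8-cell libraries, 766, 695 and 973 in the control morulae and 651, 646 and 645 in the KDM6A morulae. MRPL27, whose bacterial counterpart reaches into the peptidyl transferase centre, came next at 476 ± 10.8, 708 ± 70.1 and 651 ± 16.2 FPKM in the same order of groups (SD, n = 3 each). MRPL20, a protein that binds ribosomal RNA early in large-subunit assembly in bacteria, followed at 737 ± 25.2, 368 ± 41.9 and 375 ± 34.7. MRPS14, MRPS23, MRPS10, MRPL22 and MRPL39 completed the 8 highest, with group means between 317 and 617 FPKM. The lowest by the same mean was MRPS2, a small-subunit protein with a bacterial counterpart, at 4.71, 1.88 and 1.65 FPKM in the 8-cell libraries, 16.0, 16.9 and 14.1 in the control morulae and 17.1, 11.8 and 8.83 in the KDM6A morulae. MRPL4, MRPS9, MRPS27, MRPL10 and MRPL14 were the next lowest by the mean over 9 libraries.

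Levels were more alike across the genes in morulae than in 8-cell embryos. The highest gene mean was 548 times the lowest at the 8-cell stage, but 51.8 times in control morulae and 51.7 times in KDM6A morulae. Means below 20 FPKM belonged to 13 genes in 8-cell embryos and to 1 gene, MRPS2, in each kind of morula. The standard deviation across the 77 genes of log2(FPKM + 1) was 1.73 to 2.01 in the 8-cell libraries, 1.14 to 1.28 in control morulae and 1.12 to 1.32 in KDM6A morulae. The groups of stages did not overlap in this spread. The 37 nuclear genes of complex I, an enzyme that mitoribosomes help to build, showed 1.85 to 2.24 in 8-cell libraries against 1.31 to 1.47 in morulae. Cytosolic ribosomal protein genes at 1 FPKM or more overlapped between the stages (1.57 to 1.84 against 1.56 to 1.72), and so did all genes at that level (2.21 to 2.28 against 2.23 to 2.27).

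**Figure D2:**
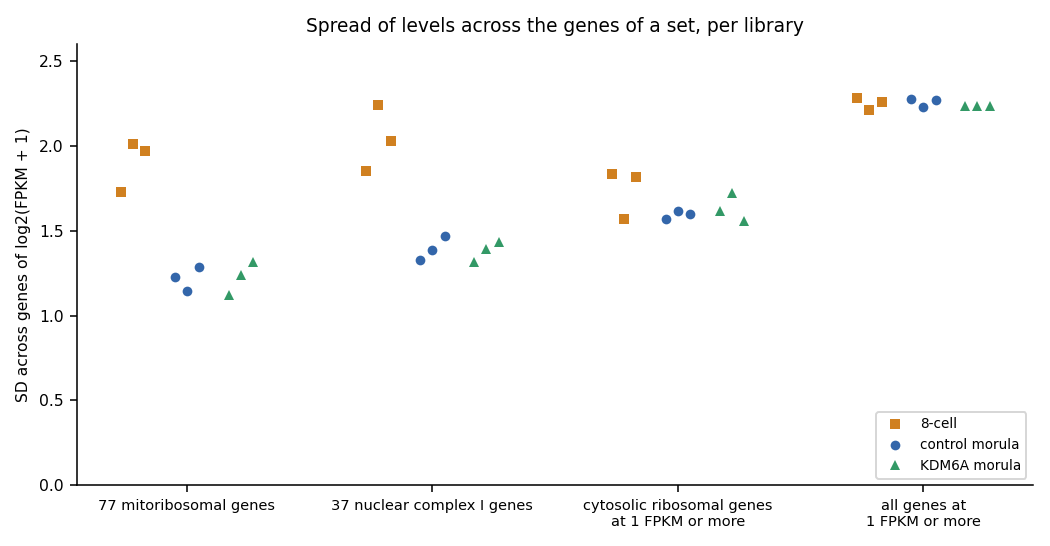
Standard deviation across genes of log2(FPKM + 1) within each library for 4 gene sets, with 1 symbol per library and no error bars. For the 77 mitoribosomal genes the 8-cell squares (1.73 to 2.01) stand above all 6 morula symbols (1.12 to 1.32), while for all genes the groups overlap.

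Between the 8-cell stage and the control morula, 47 mitoribosomal genes rose, 6 fell and 24 did not pass the test (limma, adjusted p below 0.05 over 10048 tested genes). Among all tested genes 42.7% rose and 27.1% fell, against 61.0% and 7.79% of the 77. The groups did not overlap in 49 genes that were higher and 6 that were lower in control morulae, where the whole table gave 45.4% and 29.1%. The median log2 fold change was 0.89 for the 77 and 0.35 for all tested genes, and 53 of the 77 lay above the median of all genes. That shift of all genes depends on scaling, since it was 0.07 after quantile normalization and 0.11 after median-of-ratios scaling. The split of the 77 was then 43 higher and 9 lower, and 39 higher and 11 lower, with 54 and 52 genes above the shifted median. Of all 10048 tested genes, 3625 were higher and 3340 lower after quantile normalization, and 3687 and 3269 after median-of-ratios scaling. On the deposited values these numbers were 4293 and 2719, so the calls of all genes also moved toward falls. Rises of 39 genes and all 6 falls were called on the deposited values and on the 3 other scales tried, and no called gene changed sign on any of them. Levels in control morulae were at least 2-fold those of 8-cell embryos in 32 genes and at least 4-fold in 8, as ratios of mean FPKM.

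**Figure D3:**
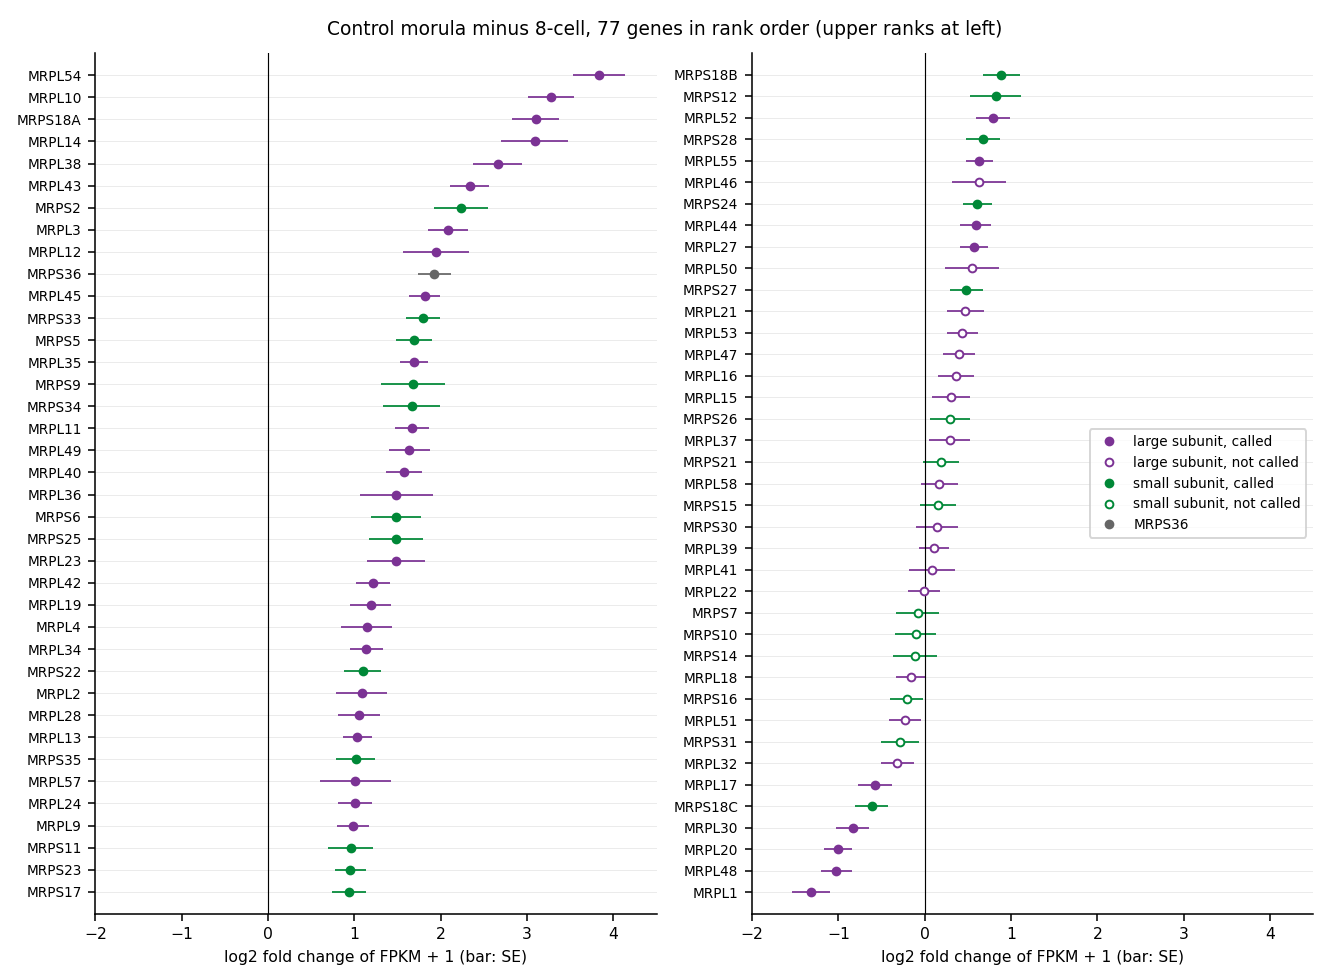
Log2 fold change of FPKM + 1, control morula minus 8-cell, for the 77 genes in rank order, with bars of 1 SE. Filled symbols passed the adjusted p threshold of 0.05, and the order runs from MRPL54 at 3.83 to MRPL1 at -1.32.

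The stalk of the large subunit is the flexible arm that draws translation factors to the ribosome. Of its 5 genes on the list, 4 rose and the fifth, MRPL53, missed the threshold, with a median log2 fold change of 1.95. Over all tested genes 42.7% rose and 27.1% fell. MRPL54, a mitochondrial protein at the stalk base, stood at 3.53, 0.99 and 2.24 FPKM in the 8-cell libraries, 42.6, 45.8 and 40.3 in the control morulae and 40.6, 43.6 and 41.1 in the KDM6A morulae. All 3 8-cell libraries lay far below the 6 morula libraries, which differed little among themselves. Its mean was 19.0 times as high in control morulae, a log2 fold change of 3.83 ± 0.30 (SE, adjusted p = 6.17e-06). MRPL10, the protein that carries the copies of MRPL12, stood at 4.65, 3.21 and 2.08 FPKM in the 8-cell libraries, 37.04, 46.4 and 36.1 in the control morulae and 42.3, 35.0 and 25.6 in the KDM6A morulae. Again every morula library exceeded every 8-cell library. The mean of control morulae was 12.03 times that of 8-cell embryos, and the log2 fold change was 3.28 ± 0.27 (SE, adjusted p = 7.29e-06).

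MRPL12, the repeated protein at the stalk tip, also known to bind mitochondrial RNA polymerase, stood at 59.0, 17.8 and 43.3 FPKM in the 8-cell libraries, 184, 122 and 125 in the control morulae and 175, 211 and 168 in the KDM6A morulae. The stages did not overlap, and the log2 fold change was 1.95 ± 0.38 (SE, adjusted p = 0.0012). Its row is named SLC25A10 in the 8-cell files, a gene that lies next to MRPL12 in the RefSeq annotation of ARS-UCD2.0. Whether the row holds the same reads in both sets of files was not tested. MRPL11, at the stalk's foot, rose from 87.0 ± 18.3 to 275 ± 24.3 FPKM (SD, n = 3 each), by 1.67 ± 0.20 (SE, adjusted p = 5.35e-05) on the log2 scale. MRPL53 stood at 39.0, 42.6 and 40.4 FPKM in the 8-cell libraries, 61.0, 53.1 and 52.2 in the control morulae and 54.9, 65.6 and 54.1 in the KDM6A morulae, with no overlap of the stages but a log2 fold change of only 0.44 ± 0.18 (SE, adjusted p = 0.0508). It passed with 8-cell replicate 2 left out (adjusted p = 0.0491). MRPL53 was thus 11.0 to 43.0 times as abundant per length as MRPL54 in 8-cell libraries, but 1.16 to 1.503 times in the 6 morula libraries.

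Opposite movements were found among the 3 MRPS18 paralogs, which all descend from bacterial S18 and in mammals occupy different places in the same ribosome. MRPS18A, whose protein sits in the large subunit, stood at 33.0, 17.3 and 17.0 FPKM in the 8-cell libraries, 235, 168 and 176 in the control morulae and 241, 208 and 197 in the KDM6A morulae. No 8-cell library came near the morulae, and the mean was 8.61 times as high in controls, a log2 fold change of 3.101 ± 0.27 (SE, adjusted p = 1.05e-05). MRPS18B, in the small subunit, rose less, from 178, 141 and 230.5 FPKM in 8-cell libraries to 381, 289.8 and 332 in control morulae, a change of 0.89 ± 0.22 (SE, adjusted p = 0.00431). MRPS18C, the form at the bacterial position, fell by 0.61 ± 0.19 on the log2 scale (SE, adjusted p = 0.0157), with all 3 control libraries below the 8-cell ones. This fall missed the threshold without control replicate 1 (adjusted p = 0.0537) or control replicate 2 (adjusted p = 0.0664), and with array weights (adjusted p = 0.0609). The level of MRPS18C per length was 32.6 to 80.0 times that of MRPS18A in 8-cell libraries, 3.26 to 5.51 times in control morulae and 2.70 to 3.27 times in KDM6A morulae.

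**Figure D4:**
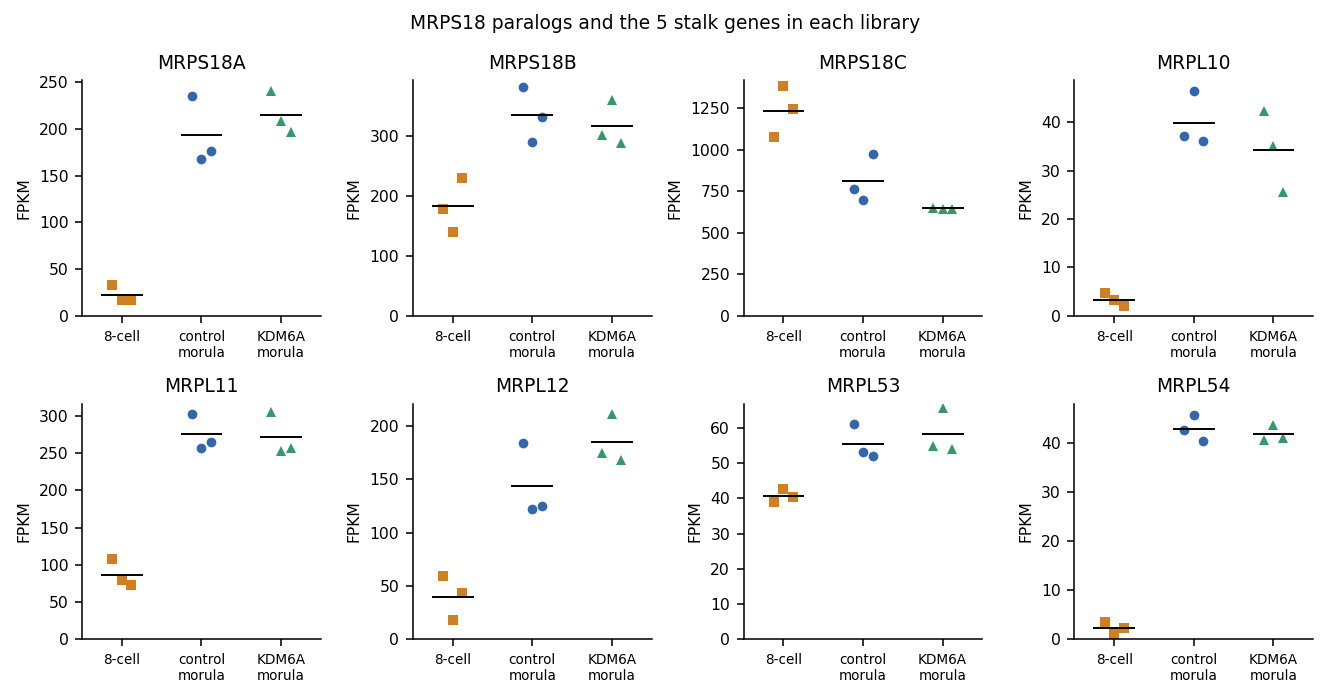
FPKM of the 3 MRPS18 paralogs and the 5 stalk genes in each library, on linear axes that start at 0, with a line at each group mean. MRPL10 and MRPL54 are near 0 at the 8-cell stage, where MRPS18A has a mean of 22.4 FPKM. These genes are far higher in all morulae, whereas MRPS18C is highest in the 8-cell libraries.

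In the central protuberance, the crown of the large subunit, 3 of 6 genes rose, 1 fell and 2 did not pass, near the shares over all tested genes (42.7% and 27.1%). MRPL38 stood at 9.14, 4.31 and 4.90 FPKM in the 8-cell libraries, 49.6, 44.1 and 34.3 in the control morulae and 57.1, 55.6 and 49.6 in the KDM6A morulae, a log2 fold change of 2.66 ± 0.29 (SE, adjusted p = 3.17e-05) in control morulae. Neither stage overlapped the other. MRPL40 rose by 1.57 ± 0.21 (SE, adjusted p = 0.000107) and MRPL27 by 0.57 ± 0.16 (SE, adjusted p = 0.0103), the second of which missed without control replicate 3 (adjusted p = 0.0645), after quantile normalization (0.0798) and after median-of-ratios scaling (0.142). MRPL48 went the other way, at 243, 233 and 233 FPKM in the 8-cell libraries, 137, 104 and 109 in the control morulae and 116, 128 and 127 in the KDM6A morulae. The 8-cell libraries were tightly grouped and above all 6 morulae, and the log2 fold change was -1.02 ± 0.18 (SE, adjusted p = 0.000543). MRPL18 and MRPL46 did not pass, at -0.16 ± 0.18 (SE, adjusted p = 0.447) and 0.63 ± 0.31 (SE, adjusted p = 0.0948). MRPL18 passed as lower after median-of-ratios scaling (adjusted p = 0.0349). MRPL46 passed as higher with array weights, with a replicate block and without 8-cell replicate 1 (adjusted p = 0.00228 to 0.0442).

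Of the 6 genes for proteins around the exit tunnel, through which the new chain leaves, 4 rose and none fell. Among all tested genes 42.7% rose and 27.1% fell. MRPL45, which anchors the ribosome to the inner membrane, stood at 56.8, 42.9 and 46.1 FPKM in the 8-cell libraries, 174, 185 and 159 in the control morulae and 182, 137 and 106 in the KDM6A morulae. Its stages were well apart, at 1.81 ± 0.18 (SE, adjusted p = 2.3e-05) on the log2 scale. MRPL23 rose by 1.48 ± 0.34 (SE, adjusted p = 0.00293), MRPL24 by 1.01 ± 0.19 (SE, adjusted p = 0.00109) and MRPL44 by 0.59 ± 0.18 (SE, adjusted p = 0.0137). The call of MRPL44 was lost without control replicate 1 (adjusted p = 0.0518), on the TPM scale (0.0735) and after median-of-ratios scaling (0.113). MRPL22 and MRPL47 did not pass, at -0.01 ± 0.19 (SE, adjusted p = 0.982) and 0.40 ± 0.18 (SE, adjusted p = 0.0751), and MRPL47 passed without 8-cell replicate 3 (adjusted p = 0.0413).

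Over the whole large subunit, 29 of 50 genes rose and 5 fell, with a median log2 fold change of 0.89. The shares over all tested genes were 42.7% and 27.1%. MRPL14, a protein of the face that meets the small subunit, stood at 5.23, 5.96 and 1.27 FPKM in the 8-cell libraries, 41.0, 33.5 and 40.8 in the control morulae and 36.98, 39.2 and 38.6 in the KDM6A morulae. It was among the 7 genes with an 8-cell mean below 10 FPKM, and rose by 3.09 ± 0.39 (SE, adjusted p = 8.21e-05). MRPL43, specific to mitochondria, stood at 16.8, 10.4 and 17.0 FPKM in the 8-cell libraries, 80.8, 74.7 and 75.3 in the control morulae and 86.5, 83.0 and 59.5 in the KDM6A morulae, 2.34 ± 0.23 (SE, adjusted p = 1.76e-05) on the log2 scale. MRPL3, whose bacterial counterpart reaches the catalytic centre, stood at 20.3, 11.8 and 16.5 FPKM in the 8-cell libraries, 63.8, 70.3 and 78.2 in the control morulae and 72.7, 54.3 and 43.2 in the KDM6A morulae, or 2.09 ± 0.23 (SE, adjusted p = 3.78e-05). None of these 3 had a morula library as low as any 8-cell library.

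In the small subunit, where the message is decoded, 17 of 26 genes rose and 1 fell, with a median of 0.86. The shares over all tested genes were again 42.7% and 27.1%. The difference between the subunits was not tested. MRPS2, given above for its low level, rose by 2.24 ± 0.31 (SE, adjusted p = 0.000154). MRPS33, specific to mitochondria, stood at 132, 115 and 88.3 FPKM in the 8-cell libraries, 399.6, 340.1 and 423 in the control morulae and 315, 338 and 327 in the KDM6A morulae, with a log2 fold change of 1.80 ± 0.20 (SE, adjusted p = 3.81e-05) and no overlap of the stages. MRPS12, a protein of the decoding centre, stood at 105, 42.2 and 78.8 FPKM in 8-cell and 135, 119.7 and 122.8 in control morula libraries, 0.82 ± 0.29 (SE, adjusted p = 0.0293) on the log2 scale. Its groups did not overlap, but the call was lost without any 1 control library or without 8-cell replicate 2 (adjusted p = 0.0585 to 0.0753), on each of the 3 other scales (0.0708 to 0.0964) and with no filter (0.101). MRPS36, counted in neither subunit, rose by 1.92 ± 0.19 (SE, adjusted p = 2.02e-05).

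Where 42.7% of all tested genes rose and 27.1% fell, the genes were also split by origin. Of 47 genes with a bacterial counterpart, 29 rose and 5 fell, and of 29 specific to mitochondria 17 rose and 1 fell. The medians were 0.89 and 0.79, and the difference was not tested. All 13 genes with an 8-cell mean below 20 FPKM were called higher. Every gene that fell had an 8-cell mean of at least 236 FPKM, although the same 8-cell values enter the level and the fold.

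Besides MRPS18C and MRPL48, the falls were MRPL1, MRPL20, MRPL30 and MRPL17, all with bacterial counterparts in the large subunit. MRPL1, the protein of the mobile arm through which spent transfer RNA leaves, stood at 518, 343 and 495 FPKM in the 8-cell libraries, 199, 142 and 199 in the control morulae and 151, 131 and 123.2 in the KDM6A morulae. Every morula library lay below every 8-cell library, and the log2 fold change was -1.32 ± 0.22 (SE, adjusted p = 0.000479), the largest fall of the 77. MRPL20 stood at 709, 746 and 757 FPKM in the 8-cell libraries, 417, 341 and 347 in the control morulae and 347, 414 and 364 in the KDM6A morulae, with a change of -1.004 ± 0.16 (SE, adjusted p = 0.000408). MRPL30 stood at 402, 308 and 298 FPKM in the 8-cell libraries, 194, 162 and 204 in the control morulae and 192, 209 and 206 in the KDM6A morulae, with -0.84 ± 0.19 (SE, adjusted p = 0.00285), and is named only in the 8-cell files. MRPL17 fell least, at -0.58 ± 0.19 (SE, adjusted p = 0.0215). Its call was lost without control replicate 2 or 3, or without 8-cell replicate 1 or 3 (adjusted p = 0.0571 to 0.0938).

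The 24 genes that did not pass had log2 fold changes from -0.32 to 0.63, with adjusted p from 0.0508 to 0.982. They were MRPL15, MRPL16, MRPL18, MRPL21, MRPL22, MRPL32, MRPL37, MRPL39, MRPL41, MRPL46, MRPL47, MRPL50, MRPL51, MRPL53, MRPL58, MRPS7, MRPS10, MRPS14, MRPS15, MRPS16, MRPS21, MRPS26, MRPS30 and MRPS31. MRPL58, which derives from a release factor and can free stalled chains, stood at 154, 100.4 and 159 FPKM in the 8-cell libraries, 168, 139 and 150.4 in the control morulae and 148, 146 and 129.9 in the KDM6A morulae. MRPL39, which carries a domain like that of a transfer RNA synthetase, stood at 349, 349.8 and 439 FPKM in 8-cell and 421, 375 and 427 in control libraries. In both genes the stages overlapped. Left-out libraries ended the calls of 7 of the 47 rises in at least 1 case (MRPL27, MRPL44, MRPL57, MRPS12, MRPS24, MRPS27 and MRPS28) and added 6 (MRPL15, MRPL21, MRPL46, MRPL47, MRPL50 and MRPL53). MRPL57 and MRPS27 reached adjusted p = 0.101 and 0.144 without control replicate 3, where MRPS24 and MRPS28 reached 0.0506 and 0.059. On the 3 other scales 8 of the rises were lost on at least 1, the same 7 and MRPL55. Of the 24 genes, 5 were called lower on at least 1 of these scales. MRPL32 was lower on all 3 (adjusted p = 0.015 to 0.0341). MRPL51 and MRPS31 were lower on the median-of-ratios and quantile scales (0.0271 to 0.0418). MRPL18 and MRPS16 were lower only on the median-of-ratios scale (0.0349 and 0.0449). Without 8-cell replicate 1, the library with the highest level in 50 of the 77 genes, MRPL15, MRPL21, MRPL46 and MRPL50 passed as higher at 0.0457, 0.0102, 0.00228 and 0.0163.

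KDM6A morulae were compared with the same 8-cell libraries, so the comparisons share them and are set side by side. Against 8-cell embryos 43 mitoribosomal genes were higher and 5 lower in KDM6A morulae, where 41.1% and 25.6% of 10024 tested genes were called. The median log2 fold change was 0.71, with 0.34 over all tested genes. The split became 37 higher and 10 lower after quantile normalization and 35 higher and 12 lower after median-of-ratios scaling. Of all 10024 tested genes, 3441 were then higher and 3154 lower, and 3558 and 3081, against 4121 and 2568 on the deposited values. With a library left out, 36 to 44 of the 77 were called higher, and 8 of the 43 rises lost their call at least once. MRPL54, MRPS18A, MRPL14, MRPL10 and MRPL38 had log2 fold changes of 3.795, 3.27, 3.09, 3.05 and 3.01 in KDM6A morulae, and 3.83, 3.101, 3.09, 3.28 and 2.66 in controls. MRPL1, MRPL20, MRPL48, MRPS18C and MRPL30 had -1.72, -0.98, -0.93, -0.92 and -0.72 against -1.32, -1.004, -1.02, -0.61 and -0.84.

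Calls differed in 7 genes between the stage comparisons. MRPL36, a very small large-subunit protein, had 1.48 ± 0.42 (SE, adjusted p = 0.0101) in control morulae and 0.77 ± 0.53 (SE, adjusted p = 0.215) in KDM6A morulae. MRPS28 had 0.68 and 0.37, MRPL44 0.59 and 0.47, MRPL57 1.01 and 0.90, and MRPS27 0.48 and 0.41, each called higher in control morulae and not in KDM6A morulae. MRPL57 passed in KDM6A morulae too in the joint fit, with array weights, with a replicate block and without 8-cell replicate 1 or 3. Its adjusted p was then 0.0276 to 0.0477. MRPL44 passed there without KDM6A replicate 3 (adjusted p = 0.039). MRPL17 was called lower only in controls (-0.58 and -0.47), and MRPL53 higher only in KDM6A morulae (0.44 and 0.50). The call of MRPL53 was lost without any 1 of the KDM6A replicates and without 8-cell replicate 1 or 3 (adjusted p = 0.0587 to 0.204), and on each of the 3 other scales (0.114 to 0.269). In control morulae MRPL53 passed with the smaller pseudocounts, with no filter, in the joint fit of the 9 libraries and without 8-cell replicate 2 (0.015 to 0.0491). MRPL17 passed as lower in KDM6A morulae too on each of the 3 other scales, in the joint fit, with array weights and without 8-cell replicate 2 (adjusted p = 0.00378 to 0.0447). The direct test of each difference is the comparison of the morulae, in which none of these 7 passed (limma, adjusted p from 0.425 to 0.903). Under other settings MRPL36 passed in it as lower with array weights (0.00539) and without KDM6A replicate 1 (0.00781). MRPS28 passed as lower with array weights (0.0316).

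Between KDM6A and control morulae none of the 77 genes passed the test, where 0.164% of 9777 tested genes were called in either direction. A log2 fold change below 0 was found in 56 of 77 (72.7%), against 51.4% of all tested genes, and the median was -0.11, against -0.01. The genes above 0 numbered 21 on the deposited scale and after median-of-ratios scaling, 29 on the TPM scale and 27 after quantile normalization, with medians of -0.0427 and -0.0434 on the latter 2. On those 2 scales 5431 and 4800 of the 9777 tested genes lay above 0. The mitoribosomal genes above the median of all tested genes numbered 23 on the deposited scale, on the TPM scale and after median-of-ratios scaling, and 28 after quantile normalization. The log2 fold changes ran from -0.71 to 0.38, with adjusted p from 0.281 to 0.998. At an unadjusted p under 0.05 (limma), 4 genes were lower (MRPS26, MRPL40, MRPS23 and MRPL1) and none was higher. Of all 9777 tested genes, 627 (6.41%) were lower and 617 higher at that level. Groups did not overlap in 10 genes that were lower and 2 that were higher in KDM6A morulae, against 8.61% and 7.1% of all genes. With 3 libraries against 3, an exact permutation test of any 1 gene cannot go below p = 0.1.

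**Figure D5:**
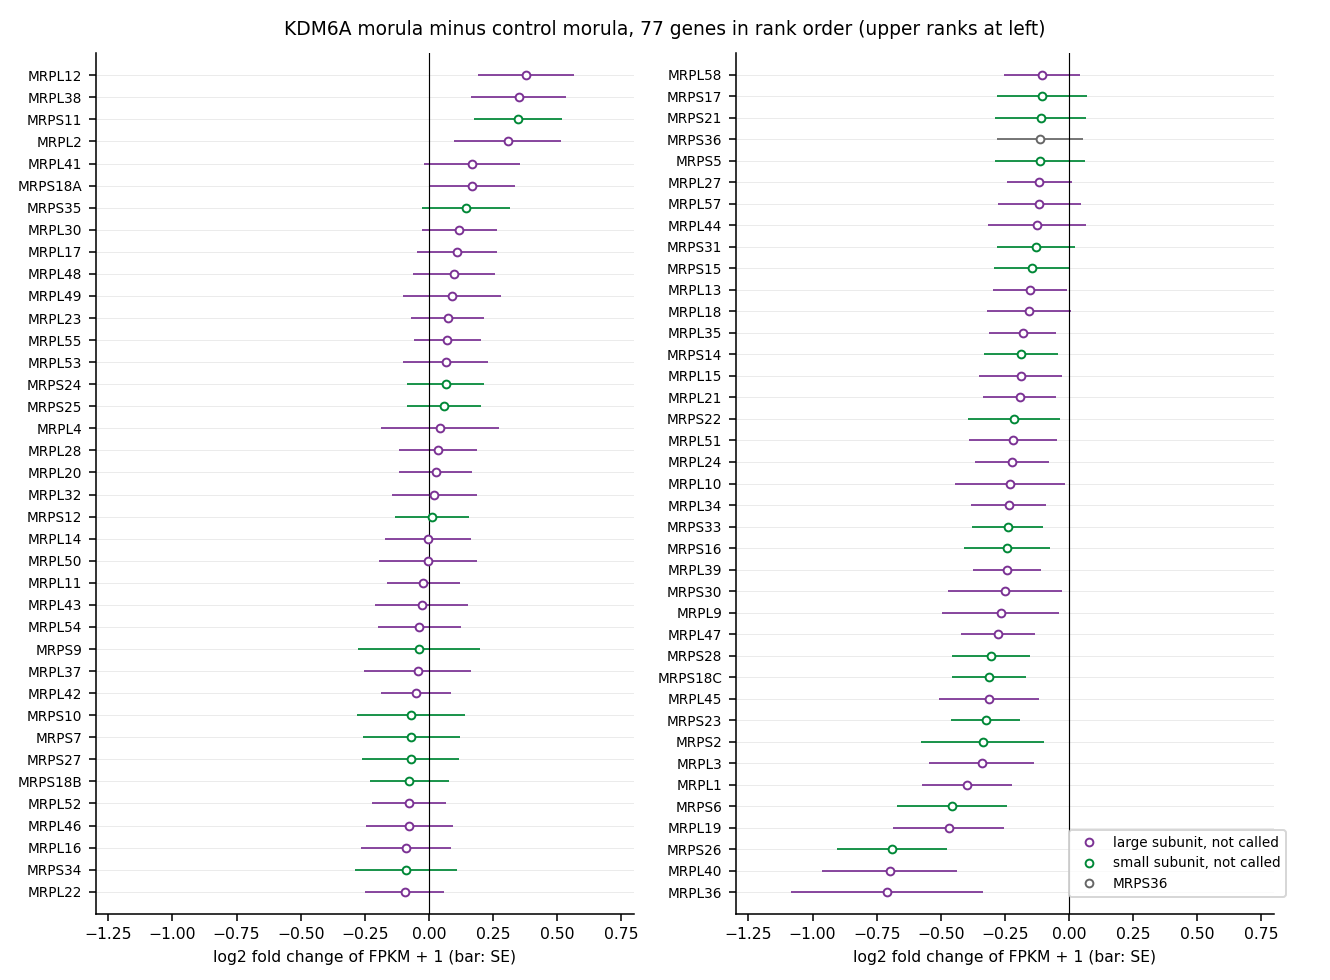
Log2 fold change of FPKM + 1, KDM6A morula minus control morula, for the 77 genes in rank order, with bars of 1 SE. All symbols are open because none passed the adjusted p threshold of 0.05, and 56 of the 77 lie below 0.

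MRPS26, a small-subunit protein specific to mitochondria, had the smallest p. It stood at 164, 141 and 125 FPKM in control morulae, 119.9, 84.4 and 67.2 in KDM6A morulae and 135, 82.6 and 142 in 8-cell libraries. The morula groups did not overlap, and the log2 fold change was -0.69 ± 0.21 (SE, adjusted p = 0.281). MRPL40, of the central protuberance, stood at 43.3, 54.8 and 39.3 FPKM in control and 41.1, 26.7 and 18.9 in KDM6A morulae, -0.70 ± 0.26 (SE, adjusted p = 0.32). Its KDM6A replicate 1 lay among the controls and the other two below all of them. MRPS23, specific to mitochondria, stood at 618, 535 and 697 against 495, 498 and 475 FPKM, with no overlap and -0.33 ± 0.14 (SE, adjusted p = 0.359). MRPL1 stood at 199, 142 and 199 against 151, 131 and 123.2, with overlap and -0.40 ± 0.18 (SE, adjusted p = 0.381).

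The next smallest p-values belonged to MRPL19, MRPS18C, MRPS6, MRPS11, MRPL12, MRPS28, MRPL47 and MRPL38. MRPS18C stood at 766, 695 and 973 FPKM in control and 651, 646 and 645 in KDM6A morulae, without overlap, at -0.31 ± 0.14 (SE, adjusted p = 0.399). MRPS28 and MRPL47 also lay wholly below the controls, at -0.31 and -0.28. MRPS11 and MRPL38 were the 2 genes wholly above them, at 0.35 and 0.35, with 102, 74.9 and 91.9 against 108, 129 and 106 FPKM for MRPS11. MRPL12 was highest in fold change, at 0.38, but with overlap. MRPS11 and MRPL46 are neighbours in the RefSeq annotation of ARS-UCD2.0, the only neighbouring pair among the 77. MRPL46 stood at 113, 80.4 and 90.8 FPKM in control and 93.4, 89.7 and 83.8 in KDM6A morulae, a log2 fold change of -0.08.

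KDM6A replicate 1 stood apart from the other injected pools in several of these genes. MRPL36 stood at 88.5, 66.2 and 70.0 FPKM in control and 97.2, 29.5 and 31.6 in KDM6A morulae, so that replicate 1 exceeded every control and the others lay at less than all of them. MRPL19, a large-subunit protein with a bacterial counterpart, stood at 149, 149.6 and 153 against 153, 106 and 79.0, and MRPS6, of the small subunit, at 122.9, 127 and 103 against 119, 77.1 and 67.0. With that replicate left out, 5 genes passed as lower, where 3.75% of 9596 genes did. They were MRPL36 (-1.26, adjusted p = 0.00781), MRPS26 (-0.91, 0.0183), MRPL40 (-0.98, 0.0273), MRPL19 (-0.71, 0.0345) and MRPS6 (-0.69, 0.038). With limma's array weights, which give less weight to libraries that lie far from the fit, 4 genes passed as higher and 10 as lower, where 14.6% and 11.1% of all genes did. KDM6A itself stood at 35.6, 87.6 and 79.4 FPKM in KDM6A replicates 1, 2 and 3, so replicate 1 also held the least KDM6A of the injected pools. Its part in these differences was not tested. Replicate 3 was the lowest of the 3 injected pools in 47 of the 77 genes and replicate 1 the highest in 37.

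All 7 genes on the list of mitoribosomal proteins with other symbols rose from the 8-cell stage to the control morula. Over all tested genes 42.7% rose and 27.1% fell. The 7 include LACTB and OXA1L, described below, and had a median log2 fold change of 1.18. DAP3, the GTP-binding protein of the small subunit, rose from 19.7 ± 3.23 to 45.5 ± 5.03 FPKM (SD, n = 3 each), by 1.18 ± 0.21 (SE, adjusted p = 0.000602). AURKAIP1 and CHCHD1, of the small subunit, rose by 1.82 ± 0.30 (SE, adjusted p = 0.000411) and 1.29 ± 0.18 (SE, adjusted p = 0.000151). The list also holds LACTB, once taken for a mitoribosomal protein, and OXA1L, which inserts new chains into the membrane at the tunnel exit. OXA1L rose by 1.63 ± 0.22 (SE, adjusted p = 0.00014).

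Of 16 tested translation factors, 8 rose and 2 fell, against 42.7% and 27.1% of all tested genes. TUFM and TSFM, the elongation factor and its exchange partner, rose by 1.63 ± 0.21 (SE, adjusted p = 9.38e-05) and 1.87 ± 0.30 (SE, adjusted p = 0.000337), and MTRF1 by 1.54 ± 0.25 (SE, adjusted p = 0.000432). MTRF1L, the release factor that reads the standard stop codons, fell from 395 ± 85.5 to 182 ± 12.7 FPKM, at -1.09 ± 0.19 (SE, adjusted p = 0.000657). Of 24 tested genes for mitoribosome assembly and ribosomal RNA modification, 15 rose and 3 fell, against 42.7% and 27.1% of all tested genes. RBFA, YBEY, DDX28 and MRM1 had the smallest p-values, with log2 fold changes of 2.76, 2.06, 2.29 and 2.54 (adjusted p from 1.31e-05 to 4.77e-05). Each had an 8-cell mean below 5 FPKM.

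Of 9 genes that act on mitochondrial DNA, 2 rose and 3 fell, where 42.7% and 27.1% of all tested genes did. TFAM, which packages mitochondrial DNA, fell from 177 ± 43.8 to 42.7 ± 14.2 FPKM, at -2.04 ± 0.26 (SE, adjusted p = 9.27e-05), while POLRMT, the mitochondrial RNA polymerase, rose at 1.90 ± 0.28 (SE, adjusted p = 0.000189). Among 9 tested nuclear regulators of mitochondrial genes 6 fell and 1, PPARGC1B, rose, against the same shares of all tested genes. GABPA and NRF1, transcription factors with many targets among genes for mitochondrial proteins, fell at -1.82 ± 0.23 (SE, adjusted p = 8.97e-05) and -2.15 ± 0.31 (SE, adjusted p = 0.000169). GABPA went from 462, 389 and 504 FPKM in 8-cell libraries to 167, 91.5 and 132 in control morulae. Of the 13 mitochondrially encoded mRNAs, the messages that mitoribosomes read, 8 were higher and 2 lower, beside those same shares. ND2 had the largest rise at 2.74 ± 0.18 (SE, adjusted p = 2.22e-06), and ATP8 and cytb the falls at -1.82 and -1.09.

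Cytosolic ribosomal protein genes, the counterparts outside mitochondria, had 64 higher and 5 lower of 88 tested, with a median of 0.93. After quantile normalization the split was 55 higher and 15 lower, with a median of 0.54, where 3625 and 3340 of all 10048 tested genes were called. Nuclear complex I genes had 35 higher and none lower of 37, with a median of 2.04. On the deposited values 42.7% of all tested genes were higher and 27.1% lower. The mitoribosomal median of 0.89 thus lay near that of the cytosolic genes and below that of complex I, and these differences between lists were not tested. Between KDM6A and control morulae no gene of any of these other lists passed (limma). The lists held 7 to 91 genes, of which 0 to 7 had an unadjusted p under 0.05, where 1244 of 9777 tested genes did. After quantile normalization 1 mitochondrially encoded mRNA passed as higher and 1 as lower, where 19 and 9 of 9777 genes did. The medians of these lists ran from -0.19 for mitochondrial DNA genes to 0.09 for the nuclear regulators. MALSU1, an assembly factor that binds MRPL14, stood at 188, 194 and 164 FPKM in control and 137, 70.8 and 62.6 in KDM6A morulae, -1.09 ± 0.26 (SE, adjusted p = 0.169).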

How the data were processed

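Per the file headers, the deposited values are FPKM per gene for each library, written by the authors to 2 decimals. Per the submitters' processing notes, the tools were RSEM 1.2.12, Bowtie2 2.2.5, StringTie 1.0.4, HISAT 0.1.6 and bcl2fastq 2.16 on UMD3.1. Those notes name these tools for all 9 libraries, but neither which tool gave the values nor whether the 8-cell and morula files were made in the same way, which bears on every stage fold change. No steps of whole reads were seen among low values (4.30% to 8.96% of ratios in the most common bin over 36 library pairs), so depth is unknown and no counting intervals are given. No pair of libraries held identical values.

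Symbols were cleaned of stray spaces and files joined by Ensembl gene identifier with Python 3.11.15 and pandas 2.3.3. In R 4.3.3, limma 3.58.1 was run separately on the 6 libraries of each comparison, using a trended prior variance and log2(FPKM + 1). That scale understates the change of low genes. Tested genes had 1 FPKM or more in 3 or more of those libraries, all 77 mitoribosomal genes among them, and Benjamini-Hochberg adjustment over all tested genes had a threshold of 0.05. A gene rose, fell or was called only if it passed. The fit was also run on simulated data with noise drawn independently for each gene and library. Those data held no outlying library and no difference of series or scale, so the run could not test how these affect the calls.

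The mitoribosomal genes, the other gene lists and the rule for naming genes were chosen with earlier results of these data known. Named are the 8 highest and 6 lowest by mean, the 12 smallest p-values of the KDM6A comparison, the 12 largest rises, the falls and the genes not called between the stages, genes whose calls differ between the stage comparisons, genes whose symbol differs between files, and up to 4 of each list. MRPL23 is named only in the 8-cell files, and MRPL43 and MRPS6 only in the morula files. RefSeq annotation of ARS-UCD2.0, which held all 77 symbols, served only for names and neighbours. Promoter and protein sequences were not analysed here. The alternatives tried were 3 scalings (TPM, quantile, median-of-ratios), a joint fit of the 9 libraries, array weights, a replicate block, each library left out, pseudocounts of 0.5 and 0.1, and a filter at 5 FPKM or none.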

Additional observations from a re-analysis of the deposited data

How the results depend on the processing

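Between KDM6A and control morulae, 0 mitoribosomal genes were called in either direction (limma). At an unadjusted p under 0.05, 4 were lower and none higher, where 627 and 617 of 9777 tested genes were. Array weights called 4 higher and 10 lower, and leaving out a library called 0 to 5 lower, the 5 without KDM6A replicate 1. Between control morulae and 8-cell embryos, median-of-ratios scaling gave 11 lower genes, where 3269 of 10048 tested genes were lower, against 2719 as deposited. The median log2 fold change there was 0.67 after quantile normalization and 0.61 after median-of-ratios scaling, and 0.68 to 1.02 with a library left out, lowest without 8-cell replicate 2. Between KDM6A morulae and 8-cell embryos, the genes called lower numbered 8 on the TPM scale, 10 after quantile normalization, 12 after median-of-ratios scaling, 9 with array weights and 5 to 8 with a library left out, 8 without 8-cell replicate 2. The median there was 0.45 after median-of-ratios scaling. The cause of these changes was not tested.

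In the stage comparison of control morulae, changes of sign among the genes named were found in 10 genes, none of which passed. On the TPM scale, after quantile normalization and after median-of-ratios scaling the log2 fold change was -0.0725, -0.11 and -0.17 for MRPL39, -0.096, -0.15 and -0.19 for MRPL41, -0.0135, -0.0653 and -0.11 for MRPL58, -0.0246, -0.0604 and -0.12 for MRPS15, and -0.0385, -0.034 and -0.13 for MRPS30. MRPS21 reached -0.0851 after median-of-ratios scaling. Array weights gave 0.10 for MRPL22 and 0.0382 for MRPS14. With a library left out, values ran from -0.0857 to 0.15 for MRPL22, -0.16 to 0.39 for MRPL41, -0.0442 to 0.29 for MRPL58, -0.31 to 0.13 for MRPS10, -0.36 to 0.17 for MRPS14, -0.12 to 0.31 for MRPS30 and -0.32 to 0.0549 for MRPS7.

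Same-numbered libraries of different groups did not deviate together (correlations across genes of -0.24 to 0.16 over the 3 comparisons), so the numbers were not taken to pair the samples. With the replicate number as a block, 0 genes were called between the morulae, 48 rose and 6 fell from 8-cell embryos to control morulae, and 42 rose and 5 fell to KDM6A morulae, where the calls of MRPL27 and MRPL53 were lost (adjusted p = 0.0686 and 0.0765). Depth is unknown, so the precision of low values such as those of MRPL54 at the 8-cell stage rests on 3 libraries.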
